A study of Mus musculus with 6 samples.

Results

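Genes for the mitochondrial respiratory chain and the ATP synthase were followed in mouse skin wounds in which the level of β-catenin had been altered. They were taken by symbol, as every gene on the array whose name starts with Nduf, Uqcr, Atp5, Cox4, Cox5, Cox6, Cox7 or Cox8, with Sdha, Sdhb, Sdhc, Sdhd, Cyc1 and Cycs. This took 89 genes, of which 82 had a probe with a detection p-value under 0.01 on at least 2 of the 6 arrays, out of 10266 genes that passed the same filter. Each gene is given by its brightest passing probe. By symbol alone, 42 of the 82 genes were placed in complex I, 3 in complex II and 7 in complex III. A further 13 were placed in complex IV and 16 in the ATP synthase, and 1 is cytochrome c. Whether each product is found in the complex of its symbol was not checked. The complex I set holds 7 assembly factors (symbols starting Ndufaf) and the pseudogene Ndufs5-ps, and the complex IV set holds Cox7a2l, a factor of supercomplex assembly. The rule itself uses symbols and the detection filter, and no difference between groups.

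The wounds were full thickness dorsal skin wounds of C57/BL6 mice, taken 8 days after injury, and total RNA of each sample was hybridised to 1 array. The GFP control (1 array) and the stabilized wound (1 array) came from mice aged 2 months with floxed exon 3 of β-catenin, given adenovirus with GFP or with Cre. Loss of exon 3 leaves a β-catenin protein that escapes degradation. The tamoxifen control (2 arrays, mice aged 4 months, no Cre) and the knockdown (2 arrays, mice aged 5 months, with Cre-Esr1) carried floxed exons 2 to 6 and all received tamoxifen. The labels do not give the promoter of Cre-Esr1, and age goes with genotype in the tamoxifen model, so their effects cannot be told apart. The probe table found 15883 to 16681 probes detected per array, and the mean intensity was 544.4 on the GFP array against 648.7 to 714.8 on the others. Skin was represented by 13 of 14 keratinocyte and 9 of 10 fibroblast markers. Ctnnb1, the β-catenin gene, read 11.56 on the GFP array, 11.49 on the stabilized array, 11.77 and 12.07 in the tamoxifen controls against 11.73 and 11.84 in the knockdown (log2 intensity). Its knockdown difference was -0.13 ± 0.16 (SE, limma adjusted p = 0.80). Whether this probe lies within the floxed exons was not examined, so its level is no check of the labels.

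The respiratory chain passes electrons from NADH (complex I) and succinate (complex II) through ubiquinone, complex III and cytochrome c to oxygen at complex IV, and the ATP synthase makes ATP with the protons pumped on the way. Most subunits are encoded in the nucleus and made in all tissues with mitochondria. The few that mitochondrial DNA encodes are outside this set. Some complex IV subunits have a second gene whose product replaces the common one in striated muscle: Cox6a2 in place of Cox6a1, Cox7a1 in place of Cox7a2, and Cox8b in place of Cox8a. In the mouse, Cox7a1 and Cox8b are also known from brown fat.

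The muscle isoforms are set against the rest below, so the RefSeq promoter windows (GRCm38.p6, 250 bases before to 50 after the start of transcription, 5′ to 3′ on the gene's strand) are shown for those that have one and for 2 of their counterparts. The windows are chr7:30183921-30184220 (+ strand) for Cox7a1, chr7:140900397-140900696 (- strand) for Cox8b, chr9:79759804-79760103 (- strand) for Cox7a2 and chr5:115348909-115349208 (- strand) for Cox6a1. Capitals mark the motifs searched on both strands: the E-box CANNTG bound by myogenic and other helix-loop-helix factors, the NRF1 core CGCATGCG and the ETS site CCGGAAG. The estrogen-related receptor half-site AAGGTCA and the MEF2 site were also searched and are absent from these 4 windows. The E-box and the NRF1 core read the same on both strands as searched, and no 2 marked motifs overlap.
Cox7a1: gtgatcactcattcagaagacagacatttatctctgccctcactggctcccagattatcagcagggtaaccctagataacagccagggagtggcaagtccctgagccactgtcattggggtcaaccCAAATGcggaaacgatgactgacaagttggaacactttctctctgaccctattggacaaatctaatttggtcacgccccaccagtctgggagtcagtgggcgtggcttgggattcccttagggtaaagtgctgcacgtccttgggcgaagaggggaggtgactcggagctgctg
Cox8b: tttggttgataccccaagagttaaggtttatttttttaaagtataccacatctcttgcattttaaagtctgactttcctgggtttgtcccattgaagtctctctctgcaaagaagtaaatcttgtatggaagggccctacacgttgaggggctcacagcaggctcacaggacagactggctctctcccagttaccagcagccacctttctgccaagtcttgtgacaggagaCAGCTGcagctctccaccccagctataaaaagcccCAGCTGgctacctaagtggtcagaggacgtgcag
Cox7a2: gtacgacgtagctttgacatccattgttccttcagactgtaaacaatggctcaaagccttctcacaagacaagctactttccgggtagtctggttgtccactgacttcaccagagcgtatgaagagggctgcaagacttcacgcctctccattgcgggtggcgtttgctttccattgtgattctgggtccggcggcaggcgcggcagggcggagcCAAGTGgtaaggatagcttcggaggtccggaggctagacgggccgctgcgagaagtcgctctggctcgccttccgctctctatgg
Cox6a1: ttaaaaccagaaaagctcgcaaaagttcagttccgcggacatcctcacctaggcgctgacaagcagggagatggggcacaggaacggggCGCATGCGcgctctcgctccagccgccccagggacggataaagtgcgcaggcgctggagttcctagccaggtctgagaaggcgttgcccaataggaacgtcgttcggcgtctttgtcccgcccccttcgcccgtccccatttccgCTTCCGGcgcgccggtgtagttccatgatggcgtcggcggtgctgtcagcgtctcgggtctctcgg

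The Cox7a1 window held 1 E-box, whose first base lies 124 bases before the start, and the Cox8b window held 2 E-boxes, 19 bases before and 17 bases into the transcript. The common isoform Cox7a2 also had 1 E-box, 35 bases before its start. Cox6a1 had an NRF1 core 161 bases before and an ETS site, on the opposite strand, 16 bases before its start. For the counts, the first window listed for each gene was used. An E-box occurred in that of 72.1% of all genes with a window, and in 48 of 68 windows (70.6%) of the rest of the respiratory chain genes. The NRF1 core occurred in 11 of those 68 windows (16.2%) against 1.91% of all 27025 genes with a window, the ETS site in 17 (25%) against 9.12%, and the estrogen-related receptor half-site in 7 (10.3%) against 4.66%. The latter 3 motifs were in neither muscle isoform window, and the MEF2 site was in none of the 70 windows of respiratory chain genes, against 0.566% of all genes. The windows' median GC content was 59% in the rest and 52.7% in all genes, with 53% in Cox7a1, 48.3% in Cox8b, 56.7% in Cox7a2 and 63% in Cox6a1. These matches describe letters in a window and do not show binding.

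The 3 muscle isoforms had the largest differences of all 82 genes in both models, in opposite directions: higher in the knockdown and lower on the stabilized array (there Uqcrq at -0.95 came before Cox7a1 at -0.87 with median centring in place of quantile normalization). Cox6a2 read 10.75 and 11.31 in the tamoxifen controls against 12.01 and 12.59 in the knockdown, 11.30 on the GFP array against 9.26 on the stabilized array. Cox7a1 read 8.91 and 8.85 in the tamoxifen controls against 9.70 and 10.22 in the knockdown, 9.45 on the GFP array against 7.97 on the stabilized array. Cox8b read 9.14 and 10.06 in the tamoxifen controls against 10.58 and 11.54 in the knockdown, 10.36 on the GFP array against 8.04 on the stabilized array. In each of the 3 genes the knockdown arrays lay above both controls without overlap, and the stabilized array was the lowest of the 6. Each rests on 1 probe, and the 3 genes lie on chromosome 7.

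The knockdown difference was 1.27 ± 0.29 for Cox6a2 (log2, SE, 2.41-fold, limma adjusted p = 0.25), 1.08 ± 0.21 for Cox7a1 (2.12-fold, adjusted p = 0.22) and 1.46 ± 0.44 for Cox8b (2.75-fold, adjusted p = 0.36). None passed an adjusted p of 0.05 over all genes, and neither did any other gene in this comparison (0% of 10266). All 3 were at least 2-fold higher, as were 1.95% of all genes, and no other respiratory chain gene was. In the adenovirus pair, 1 array against 1 and therefore without a test, the GFP level was 4.12-fold the stabilized level for Cox6a2, 2.79-fold for Cox7a1 and 4.98-fold for Cox8b.

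**Figure D1:**
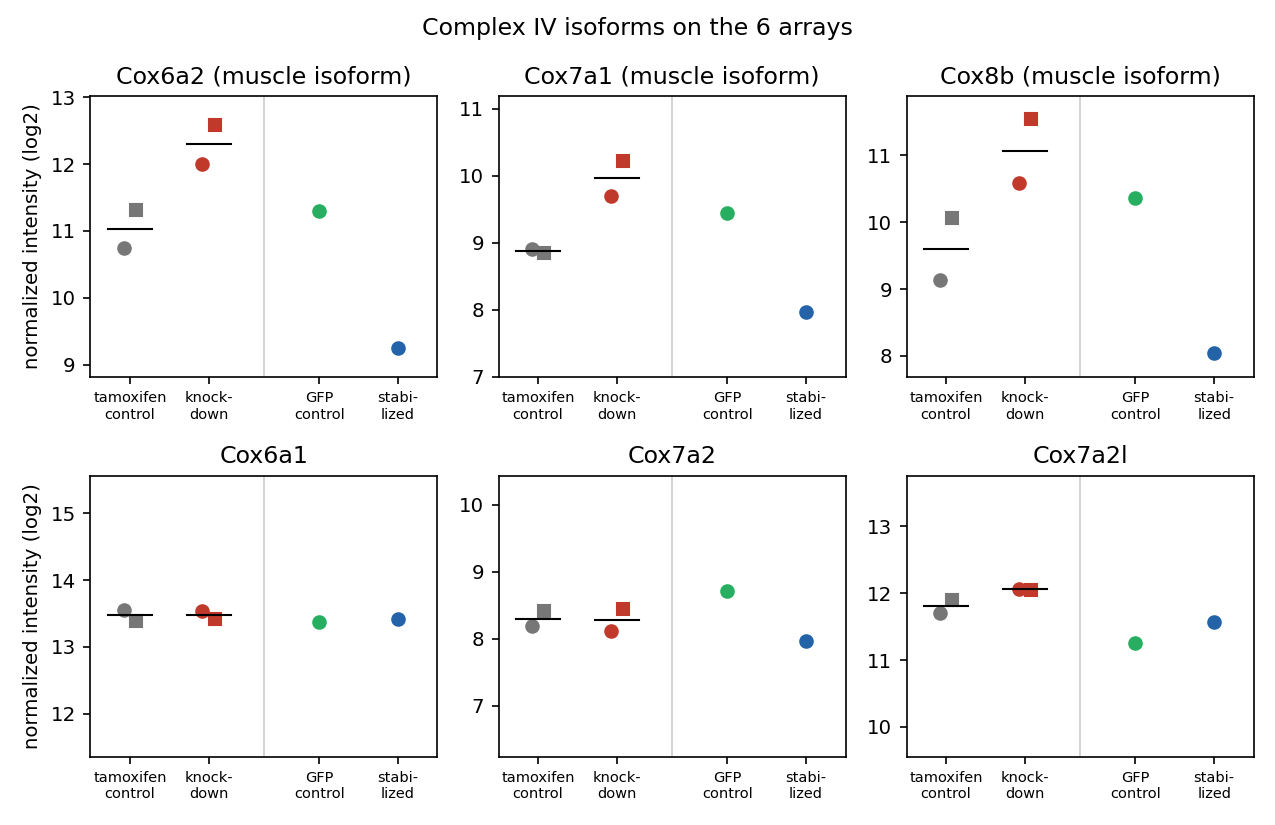
Normalized log2 intensity of 3 complex IV muscle isoforms (top) and 3 widely expressed relatives (bottom) on the 6 arrays, 1 point per array, with circles for replicate 1, squares for replicate 2 and a bar at the mean of each tamoxifen group. The vertical axes span the same range in every panel, and the knockdown points stand above both controls for the muscle isoforms, by 1.08 to 1.46 on average.

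The common counterparts did not show this pattern. Cox6a1 read 13.55 and 13.39 in the tamoxifen controls against 13.54 and 13.42 in the knockdown, 13.37 on the GFP array against 13.42 on the stabilized array, a knockdown difference of 0.01 with a 95% interval of -0.36 to 0.37. Cox7a2 read 8.19 and 8.42 in the tamoxifen controls against 8.12 and 8.44 in the knockdown, 8.71 on the GFP array against 7.97 on the stabilized array, a knockdown difference of -0.02 with a 95% interval of -0.48 to 0.44. Both counterparts overlapped between the tamoxifen groups, while Cox7a2, but not Cox6a1, was lower on the stabilized array (by 0.74). Cox7a2l, a relative of Cox7a2, was higher in the knockdown by 0.25 ± 0.14 (limma adjusted p = 0.59) and higher on the stabilized array by 0.31. No probe was named for Cox8a, so Cox8b was not set against its counterpart.

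Within an array, the level of a muscle isoform minus that of its counterpart, centred on the mean of the 6 arrays, follows the balance of the pair. For Cox6a2 and Cox6a1 it was -0.56 and 0.17 in the tamoxifen controls against 0.72 and 1.41 in the knockdown, 0.18 on the GFP array against -1.92 on the stabilized array. For Cox7a1 and Cox7a2 it was -0.16 and -0.44, then 0.70 and 0.90, with -0.14 on the GFP array against -0.87 on the stabilized array. The knockdown was above both controls in each pair, by 1.26 and 1.10 on average. The exact permutation test gave p = 0.333 for each (two-sided), which is the smallest p that 2 against 2 arrays allow. The median of the 3 muscle isoforms minus the median of the other 79 genes differed by 1.13 in the knockdown and by -1.87 in the adenovirus pair.

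Markers of skeletal muscle fibres moved with these isoforms. Of 25 markers, 22 were measured, and their summed normalized intensity was 90690 and 135900 in the tamoxifen controls, 214600 and 282800 in the knockdown, 124800 on the GFP array against 38610 on the stabilized array. Myh7, the slow myosin heavy chain, and Neb were not detected. The median difference of the 22 was 1.33 in the knockdown (21 higher, 20 of them at an unadjusted limma p under 0.05, none past the adjusted threshold) and -1.85 in the adenovirus pair (21 at least 2-fold lower). Pvalb, a calcium buffer of fast fibres, was 1.52 ± 0.18 higher in the knockdown (limma adjusted p = 0.19) and differed by -2.88 in the adenovirus pair. In the same arrays the calcium store protein Casq1 differed by 1.31, the calcium release channel Ryr1 by 1.48 and the troponin Tnnt1 by 1.39 in the knockdown. Tpm1 was the 1 marker that went the other way, by -0.43 ± 0.19 in the knockdown and 0.34 in the adenovirus pair. Slow fibre markers (7 of 9 measured, with Tnnt1 among them) had medians of 1.26 and -1.25, and fast fibre markers (10 of 11) 1.31 and -1.92. Of the slow markers 5 were higher in the knockdown and 2 lower, Tpm3 at -0.41 ± 0.28 and Atp2a2 at -0.60 ± 0.15. The part of muscle fibres in the isoform differences was not tested, and in these bulk samples fewer cells of a type and less RNA per cell cannot be told apart.

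Fat cells were checked by their markers as well. Ucp1, which defines brown fat, was not detected on any array, nor were Dio2 and Ppargc1a. The 4 measured of 7, with Cox8b itself among them, had summed intensities of 1041 and 2032 in the tamoxifen controls, 2382 and 4361 in the knockdown, 2107 on the GFP array against 559.2 on the stabilized array. Cox8b was the brightest of the 4, so this sum is no separate reading of brown fat. Cidea (0.66 ± 0.45 in the knockdown) and Elovl3 (0.74 ± 0.47) overlapped between the tamoxifen groups. Prdm16 only just passed the filter, detected on 2 arrays. It read 5.77 and 5.17 in the tamoxifen controls against 6.42 and 6.41 in the knockdown, and differed by -0.009 in the adenovirus pair. Its knockdown difference of 0.95 ± 0.23 thus rests on dim readings. A gene that is high in the knockdown alone can pass the filter through those arrays, so it is no separate reading of brown fat. General adipocyte markers, 7 of 12 measured, summed to 10830 and 11660 in the tamoxifen controls, 13960 and 22340 in the knockdown, 7262 on the GFP array against 9879 on the stabilized array. Fabp4 and Plin1 were not detected, although Adipoq, Lpl and Pparg were detected on all 6 arrays. Non-detection by these probes, or by that of Ucp1, thus does not show absence. Adipoq stood at 11.74 on knockdown replicate 2 against 8.40 to 9.07 on the other arrays. The part of fat in the isoform differences was not tested.

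The other 79 genes showed small differences, mostly of the same sign as the muscle isoforms. In the knockdown their median difference was 0.14 (range -0.17 to 0.51), beside 0.02 over all genes. Of all 82 genes, 71 were higher in the knockdown, where 53.3% of all genes were, and in 46 both knockdown arrays lay above both controls, as in 24.8% of all genes. In 1 gene, Atp5b, both lay below, as in 18.8% of all genes. At an unadjusted limma p under 0.05, 4 respiratory chain genes were higher (6.24% of all genes) and 0 were lower (4.40% of all genes). These were the 3 muscle isoforms and Ndufa5. The median over the 82 genes was 0.15, and moved to 0.08 without knockdown replicate 2 and to 0.22 without knockdown replicate 1. The count of 4 became 2 without knockdown replicate 2 or without tamoxifen control replicate 1. The genes made up 1.52% and 1.57% of the summed raw intensity in the tamoxifen controls, 1.67% and 1.79% in the knockdown, 1.44% on the GFP array against 1.39% on the stabilized array. Other markers differed alongside. The 13 keratinocyte markers summed to 263700 and 257700 in the tamoxifen controls against 219700 and 212200 in the knockdown. By gene, 10 of them were lower in the knockdown and 3 higher, with Krt15 at 0.72 ± 0.34, Krt14 at 0.02 ± 0.14 and Krt16 at -0.88 ± 0.20. The 7 measured of 10 neutrophil markers summed to 82100 and 87880 in the tamoxifen controls against 64060 and 72360 in the knockdown. By gene, 5 of the 7 were lower in the knockdown and 2 higher. In the adenovirus pair the neutrophil sum was 129500 on the GFP array against 84700 on the stabilized array. There the fibroblast sum was 103900 against 145300, and the macrophage sum 23100 against 34520. The part of these cell types in the small differences was not tested.

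**Figure D2:**
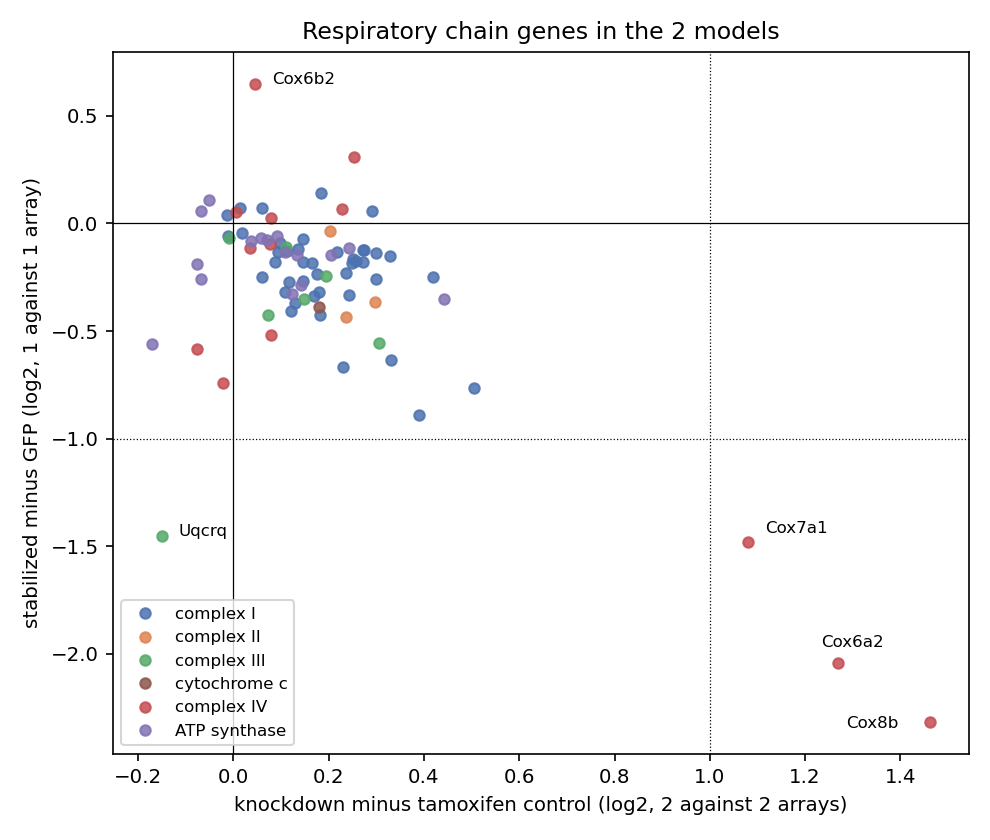
Each point is 1 of 82 respiratory chain genes, placed by its log2 difference in the knockdown (horizontal) and in the adenovirus pair (vertical) and coloured by complex, with dotted lines at 2-fold. Cox6a2, Cox7a1 and Cox8b lie apart at the lower right, and most others lie within 0.5 of the origin.

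In the adenovirus pair, 70 of the 82 genes were lower on the stabilized array, where 45.7% of all genes were, a direction that held only relative to all genes under another scaling (12 of 82 lower with median centring in place of quantile normalization). The median of the 79 genes was -0.18 beside 0.04 over all genes. With median centring it was 0.26, but all genes then shifted by 0.57, and relative to that shift the median was -0.31, with 74 of 79 genes below it. Other adenovirus differences given for single complexes and lists are those of the quantile-normalized values, and lie higher with median centring. Relative to all genes the median was -0.22 in the quantile-normalized values, with 68 of 79 below. Of the 82 genes, 4 were at least 2-fold lower (4.19% of all genes), namely the muscle isoforms and Uqcrq, and 0 were at least 2-fold higher (3.19% of all genes). With median centring 2 were, Cox6a2 and Cox8b, while Cox7a1 differed by -0.87 and Uqcrq by -0.95. Being higher in the knockdown and lower on the stabilized array was shared by 62 of the 82 genes and by 26.8% of all genes.

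**Figure D3:**
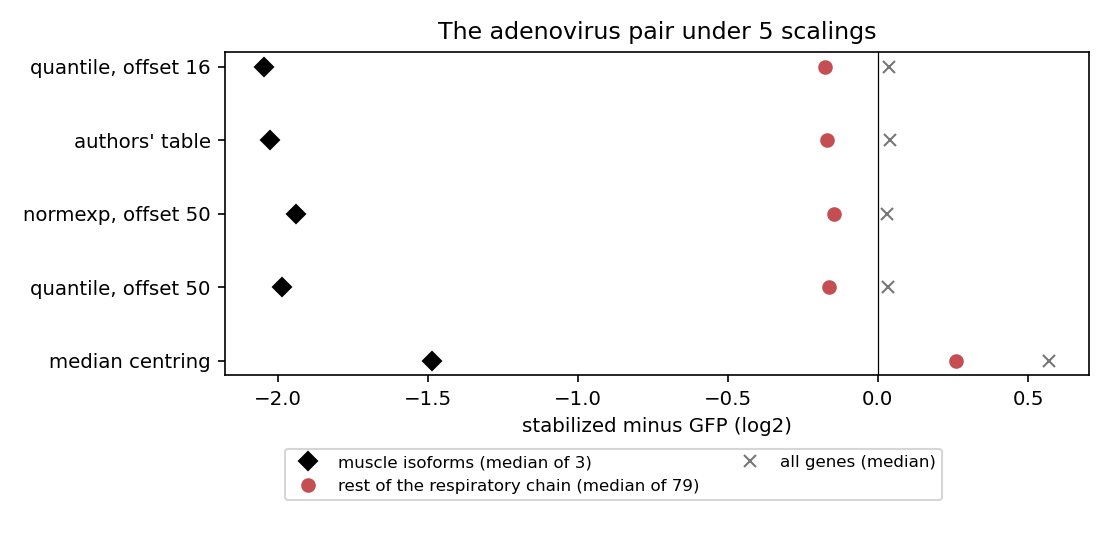
Median log2 difference of the stabilized array from the GFP array under 5 ways of scaling, for the 3 muscle isoforms (diamonds), the other 79 respiratory chain genes (circles) and all genes (crosses). The circles pass 0 with median centring (0.26), but stay to the left of the crosses (0.57), and the diamonds stay below -1.4 throughout.

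Complex I, which takes electrons from NADH, had the largest number of genes. All 35 genes other than assembly factors were higher in the knockdown (median 0.18, range 0.01 to 0.51). In 24 of them both knockdown arrays lay above both controls, as in 24.8% of all genes. Ndufa5, an accessory subunit of the peripheral arm, read 12.18 and 12.12 in the tamoxifen controls against 12.50 and 12.64 in the knockdown, 12.21 on the GFP array against 11.97 on the stabilized array. On this brighter probe the knockdown arrays were the highest of the 6, with a difference of 0.42 ± 0.13 (SE, limma adjusted p = 0.39). The other passing probe of Ndufa5 read 7.083 and 7.264 in the tamoxifen controls against 6.901 and 7.805 in the knockdown. There the groups overlapped, with a difference of 0.18. Ndufv1, the core subunit that binds NADH, read 12.51 and 12.60 in the tamoxifen controls against 12.62 and 12.66 in the knockdown, a difference of 0.09 ± 0.13 (limma adjusted p = 0.84). Its groups did not overlap, though by less than their spread.

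The membrane arm subunit Ndufb9 had the lowest adenovirus difference of complex I at -0.89. It read 8.16 and 8.64 in the tamoxifen controls against 8.40 and 9.18 in the knockdown, 8.51 on the GFP array against 7.62 on the stabilized array. The tamoxifen groups overlapped, and its knockdown difference of 0.39 ± 0.32 (limma adjusted p = 0.71) was -0.003 without knockdown replicate 2. Ndufa3 had the highest at 0.14, with readings of 12.69 on the GFP array against 12.83 on the stabilized array, although its 2 passing probes differed in sign there. Of the 7 assembly factors, which build complex I without staying in it, 5 were higher in the knockdown, with a median of 0.17. Ndufaf7 stood at 8.38 and 8.39 in the tamoxifen controls against 8.40 and 8.35 in the knockdown, a difference of -0.01 ± 0.13. The core subunit Ndufs1 was not detected.

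Complex II, which feeds electrons from succinate, was represented by 3 of its 4 genes, since Sdha, the flavoprotein, was not detected. Sdhb, its iron-sulfur subunit, read 10.38 and 10.44 in the tamoxifen controls against 10.59 and 10.83 in the knockdown, 10.40 on the GFP array against 10.03 on the stabilized array. Both knockdown arrays lay above the controls, by 0.30 ± 0.15 on average (limma adjusted p = 0.56). Sdhd, a membrane anchor, differed by 0.24 ± 0.24 in the knockdown, or -0.05 without knockdown replicate 2, and by -0.43 in the adenovirus pair.

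Complex III passes electrons from ubiquinol to cytochrome c, and 5 of its 7 genes were higher in the knockdown (median 0.11). Uqcr11, a small accessory subunit, read 13.12 and 13.24 in the tamoxifen controls against 13.39 and 13.59 in the knockdown, 13.24 on the GFP array against 12.68 on the stabilized array. Its knockdown difference was 0.31 ± 0.15 (limma adjusted p = 0.55), without overlap of the groups. Uqcrq, another accessory subunit, read 7.73 on the GFP array and 6.07 to 6.49 on all 5 others. Its adenovirus difference of -1.45 thus came with a GFP reading above the tamoxifen arrays as well. The core protein Uqcrc1 differed by 0.15 ± 0.15 in the knockdown (0.03 without knockdown replicate 2), and cytochrome c1 (Cyc1) by 0.07 ± 0.15. The Rieske protein gene Uqcrfs1 was not detected by either of its 2 probes. Cytochrome c (Cycs), the carrier between complexes III and IV, read 11.51 and 11.41 in the tamoxifen controls against 11.51 and 11.77 in the knockdown, 11.83 on the GFP array against 11.44 on the stabilized array, a knockdown difference of 0.18 ± 0.15 with overlapping groups (0.05 without knockdown replicate 2).

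Without the muscle isoforms, complex IV, the oxidase, had the smallest medians of the complexes, 0.06 in the knockdown (8 of 10 higher) and -0.03 in the adenovirus pair (5 of 10 lower). Cox4i1, the common form of the regulatory subunit, read 13.79 and 13.85 in the tamoxifen controls against 13.95 and 14.14 in the knockdown, 13.62 on the GFP array against 13.68 on the stabilized array. Its knockdown difference was 0.23 ± 0.14 (limma adjusted p = 0.63), and the other isoform, Cox4i2, was not detected, with a lowest detection p-value of 0.0118. Cox5a and Cox5b differed by 0.08 each in the knockdown (SE 0.14 and 0.13) with overlapping groups. Cox6b1 differed by 0.03 ± 0.13. Its testis isoform Cox6b2 only just passed the filter, detected on 2 arrays, and read 5.07 to 6.40. Cox7b had the lowest knockdown difference of the complex, -0.08 ± 0.16. The testis isoforms Cox7b2 and Cox8c were not detected.

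The ATP synthase had the lowest share of genes higher in the knockdown, 11 of 16, with a median of 0.08. Atp5b, the catalytic beta subunit and the gene of highest signal in the set, read 14.94 and 14.97 in the tamoxifen controls against 14.92 and 14.89 in the knockdown, 14.95 on the GFP array against 15.06 on the stabilized array. The knockdown difference was -0.05 ± 0.13 (limma adjusted p = 0.91) and 0.06 with median centring, so its sign depends on the scaling. The alpha subunit Atp5a1 read 8.98 and 9.16 in the tamoxifen controls against 8.76 and 9.04 in the knockdown, 8.999 on the GFP array against 8.44 on the stabilized array, with overlapping groups and a knockdown difference of -0.17 ± 0.16 (-0.03 without knockdown replicate 1). Atp5e, the epsilon subunit of the central stalk, was 0.44 ± 0.21 higher in the knockdown (limma adjusted p = 0.55), or 0.20 without knockdown replicate 2 and 0.69 without knockdown replicate 1. Of the genes for the proton-carrying c subunit, Atp5g2 differed by 0.12 ± 0.13 and Atp5g3 by -0.07 ± 0.13 (0.07 with median centring). No probe was named for Atp5g1.

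**Figure D4:**
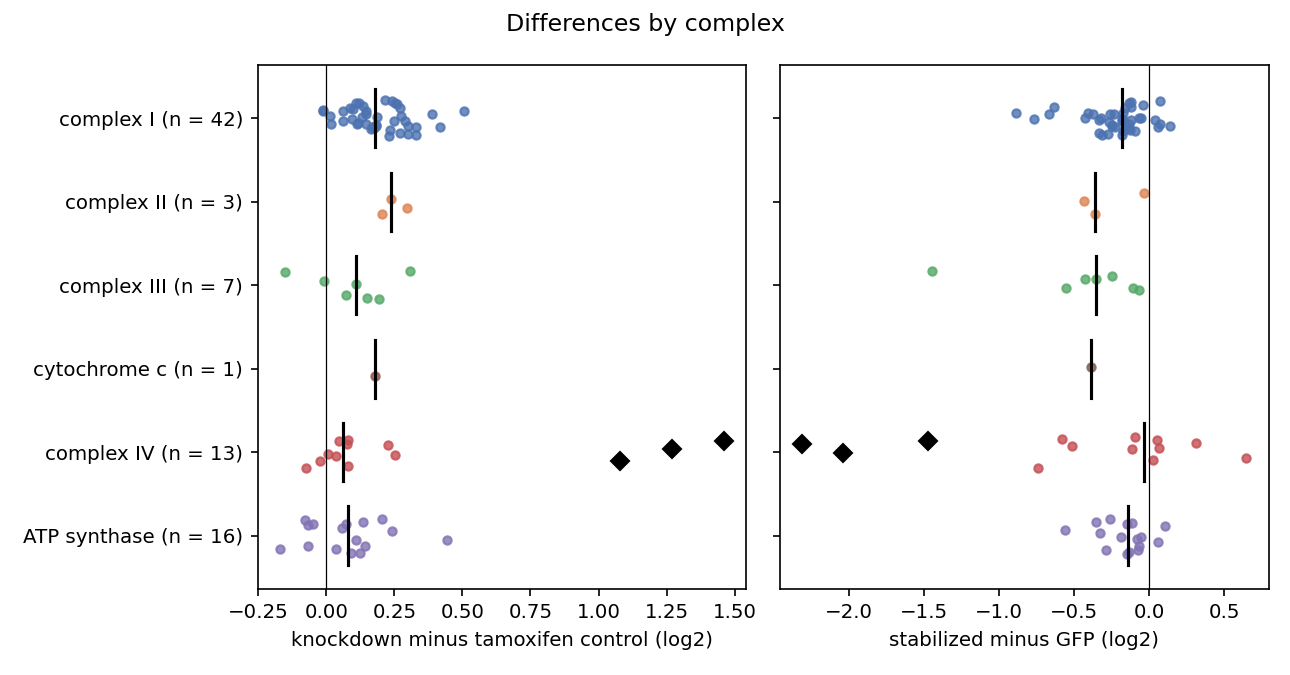
Log2 differences of the 82 genes by complex in the knockdown (left) and in the adenovirus pair (right), 1 point per gene, with a bar at each median and the 3 muscle isoforms as diamonds left out of the complex IV median. Complex I lies right of 0 in the knockdown apart from 2 assembly factors, and the complex IV median lies near 0 (0.06 and -0.03).

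Each gene's slope across the 6 arrays was fitted on a β-catenin score (knockdown -1, controls 0, stabilized wound 1) with a term for the model system, and was below 0 in 76 of the 82 genes (median -0.19) and in 5136 of all 10266 genes. At an unadjusted limma p under 0.05, 9 genes had a slope below 0 (5.48% of all genes) and 0 above 0 (5.13% of all genes). They were the 3 muscle isoforms, Ndufa5, Ndufaf2, Ndufb2, Ndufb8, Sdhb and Uqcr11. The count was 3 without knockdown replicate 2 or without tamoxifen control replicate 1, 4 without the GFP or without the stabilized array, and 13 without knockdown replicate 1. Over the other settings it ran from 3 with median centring to 33 without the model system term. None passed after adjustment, as in all genes (0%). The slope was -1.53 ± 0.27 for Cox6a2 (limma adjusted p = 0.15), -1.21 ± 0.18 for Cox7a1 (0.12) and -1.75 ± 0.38 for Cox8b (0.21). With median centring these 3, but no other respiratory chain gene, passed, with limma adjusted p = 0.0051 for Cox6a2, 0.032 for Cox7a1 and 0.0032 for Cox8b, among 186 genes called (1.81%). Without the model system term, Cox6a2 was the 1 respiratory chain gene to pass (limma adjusted p = 0.026), among 99 genes called (0.964%).

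Probes of 1 gene did not always read alike. For Ndufb10, a complex I subunit, the probe used, the brighter on average, read 10.11 and 9.44 on the GFP and stabilized arrays and 8.34 to 8.85 on the tamoxifen arrays, and the other read 5.42 and 5.81 against 10.15 to 10.81. The 2 probes thus put the models in opposite order. Of 22 genes with more than 1 passing probe, the probes had the same sign in 17 in the knockdown and in 18 in the adenovirus pair.

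Other mitochondrial lists were read beside the respiratory chain. Of the 71 measured mitochondrial ribosomal protein genes, which serve translation inside mitochondria, 61 were higher in the knockdown (median 0.14) and 59 lower on the stabilized array (median -0.19), figures close to those of the 79 genes. Mrpl38 differed by 0.40 ± 0.15 in the knockdown, the lowest p of that list. Assembly factors outside the naming rule (29 of 38 listed symbols measured) had medians of 0.11 and -0.14. Genes of the TCA cycle and pyruvate dehydrogenase (14 of 17) had medians of 0.08 and -0.11. Among the latter, Idh3a, a subunit of isocitrate dehydrogenase, stood at 0.38 ± 0.15 in the knockdown. Regulators of mitochondrial gene expression (14 of 20 listed symbols) had medians of 0.03 and 0.05. In the knockdown the nuclear receptor Ppard stood at -0.58 ± 0.19 and Gabpa, an ETS factor, at -0.46 ± 0.19. Carriers and channels (9 of 16) had medians of 0.06 and 0.005, but Ckmt2, the creatine kinase of striated muscle mitochondria, differed by 1.66 ± 0.26 in the knockdown (limma adjusted p = 0.19) and by -2.73 in the pair, both beyond those of the 3 muscle isoforms. Genes with symbols starting Rpl or Rps, mostly cytosolic ribosomal proteins (55 of 67), had medians of 0.05 and -0.06. No gene of these lists passed the adjusted threshold.

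**Figure D5:**
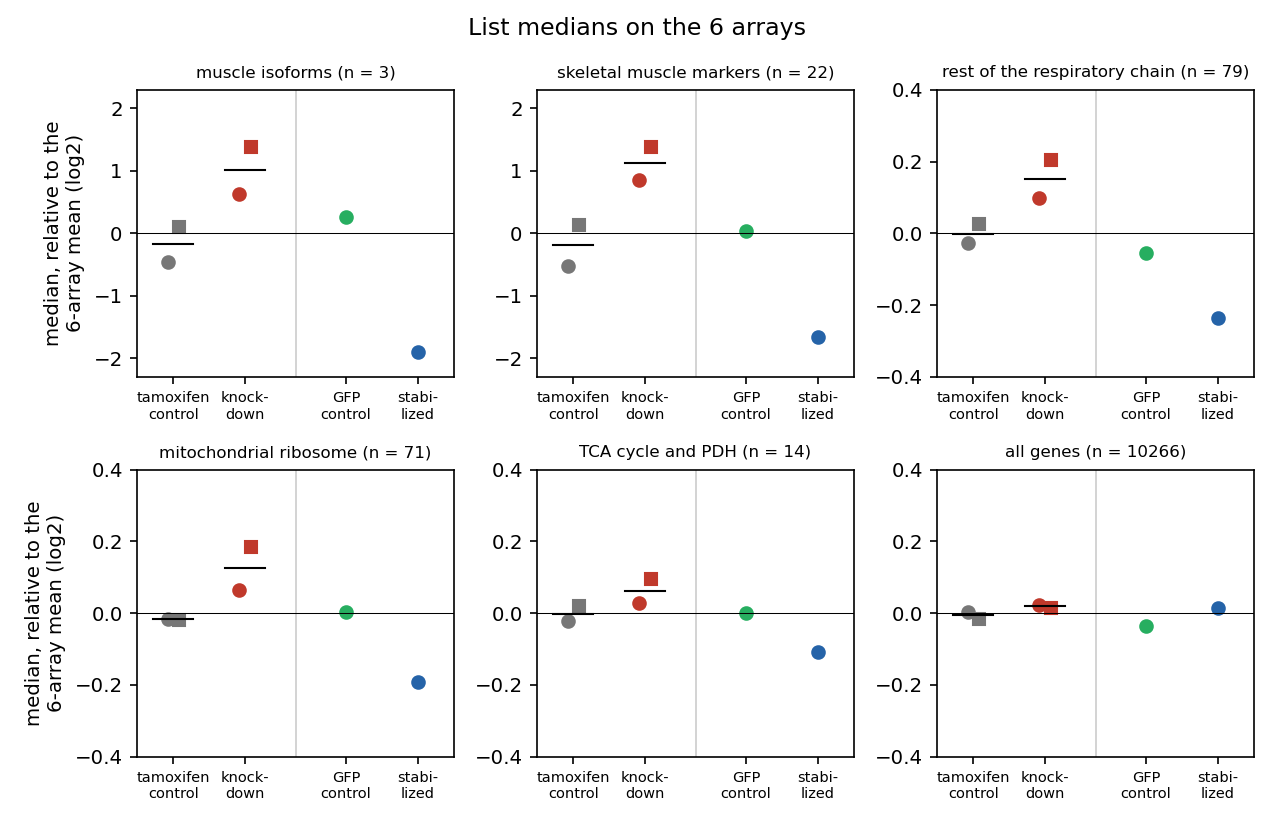
Median log2 level of 6 gene lists on each array relative to the 6-array mean, with circles for replicate 1, squares for replicate 2 and a bar at the mean of each tamoxifen group. The muscle isoforms and skeletal muscle markers are drawn on an axis wider than that of the other lists, and both stand lowest on the stabilized array and highest on knockdown replicate 2.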

How the data were processed

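RNA of 6 wound samples was measured on Illumina bead arrays, 1 array each. The deposited table gives an intensity per probe on a linear scale, not normalized between arrays, with a detection p-value, per the file headers. The authors' other deposited table is in log2 values. These rank probes as the intensities do (Spearman correlation 1), have column medians of 5.119 to 5.12 and differ by at most 0.0916 from the values used here. The submitters' processing notes name R 2.14 and limma.

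Background was corrected with the detection p-values (neqc of limma 3.58.1 in R 4.3.3), an offset of 16 was added, and log2 values were quantile-normalized over the 6 arrays. This removes a shift shared by most genes, and the offset shrinks differences of dim probes. Of 45281 probes, 34885 had 1 gene in the platform annotation, 18 had several, and 10378 are unnamed here because that annotation does not list them. A probe passed with a detection p-value under 0.01 on at least 2 of 6 arrays (17410 probes), and the brightest probe stood for its gene. A gene called not detected had no passing probe, which does not show that its RNA was absent.

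The knockdown was tested by limma's lmFit and eBayes over 4 group means (2 residual degrees of freedom, 2.92 from the prior), two-sided, with Benjamini-Hochberg adjustment over 10266 genes. Samples are biological replicates per the labels, and 2 arrays a group, or 1 in the adenovirus groups, limit the precision. The adenovirus pair had no test. The trend was fitted by limma in the same way, with model system as a term. Array batches are not given in the sources used here. The fit was first tested on simulated data. Named genes were the muscle isoforms and counterparts, other isoform pairs, core subunits, the extreme genes of each complex, and up to 4 genes a list by knockdown p. Members and lists were chosen with earlier results of these data known. RefSeq (GRCm38.p6) gave promoter windows for 70 of the 82 genes. Alternatives covered background, offset, scaling, filter, probe choice, fit and left-out arrays.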

Additional observations from a re-analysis of the deposited data

How the results depend on the processing

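Across the alternatives the count of respiratory chain genes past the adjusted threshold in the knockdown was 0 throughout, with 2 to 10 genes at an unadjusted limma p under 0.05 (main 4), and in the trend 3 to 33 (main 9). Median centring in place of quantile normalization moved the knockdown median to 0.23, the trend median to -0.071, the genes called in the trend to 3, the adenovirus median to 0.256, the genes lower on the stabilized array to 12 and those at least 2-fold lower to 2. It also turned the small knockdown differences of Atp5b (0.059), Atp5g3 (0.07), Cox7a2 (0.047) and Ndufaf7 (0.057). The trend called 1 gene without the model system term, and 9 genes were lower past 1.5-fold. The mean of the passing probes put Cox6a1 at -0.02. Leaving out 1 array gave knockdown medians of 0.079 to 0.215 and isoform contrasts of 0.876 to 1.39. It turned the sign of Cox5a (-0.004 to 0.162), Cox6a1 (-0.074 to 0.087), Cox6b1 (-0.024 to 0.092), Cox6b2 (-0.281 to 0.371), Cox7a2 (-0.183 to 0.139), Cox7b (-0.22 to 0.067), Cyc1 (-0.047 to 0.194), Ndufaf7 (-0.041 to 0.014), Ndufb9 (-0.003 to 0.781), Sdhd (-0.051 to 0.526) and Uqcrq (-0.337 to 0.036). Without turning the sign, it moved Atp5e (0.198 to 0.685), Atp5a1 (-0.309 to -0.033), Atp5g2 (0.075 to 0.172), Atp5g3 (-0.118 to -0.02), Cox4i1 (0.132 to 0.323), Cox5b (0.012 to 0.14), Cox7a2l (0.152 to 0.355), Cycs (0.05 to 0.31), Ndufa3 (0.12 to 0.25), Ndufv1 (0.04 to 0.136), Sdhb (0.18 to 0.416) and Uqcrc1 (0.027 to 0.27) by over 1.5 times at one end or both. The cause of these changes was not tested. With the replicate number as a block the knockdown median was 0.146, 71 genes were higher, 0 passed after adjustment and 6 had an unadjusted limma p under 0.05. Same-numbered arrays deviated from their group means with a correlation of 0.0385 over all genes and 0.4787 over the 82 genes. The labels tie no number to a shared animal or day, so no pairing was assumed. Leaving out Ndufb10 and Uqcrq, chosen after seeing the data, gave a trend median of -0.182 and an adenovirus median of -0.177. With 2 arrays a group, no knockdown difference of any size passed adjustment, neither those of the muscle isoforms nor the smaller ones outside them (at most 0.51). Dim probes near the detection limit, such as Cox6b2, carry shrunken differences.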
